A study of Rattus norvegicus with 30 samples.

Results

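The most abundant transcripts during Q74 expression were taken as the probes with a mean of at least 10, on the natural log scale of the deposited values, over the 24 arrays of cell lines that carry a huntingtin construct. This rule selected 247 of 22521 probes, or 1.10% of the array. The members were chosen by their level alone, and their levels are therefore given as a description. The means of the 3 members just inside the limit were 10.016, 10.014 and 10.009, and the 3 probes just outside it had means of 9.999, 9.997 and 9.997. The highest mean was 11.02 and the median of the members was 10.39, so the whole set spanned a 2.77-fold range of signal.

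RNA was hybridised to rat bead arrays from PC12 cells that express exon 1 of huntingtin fused to the Green Fluorescent Protein, with 74 glutamines (Q74 lines 4 and 6) or 23 glutamines (Q23 lines 1 and 5), under a doxycycline-inducible promoter and kept in G418 and hygromycin. Cells were harvested on day 0, before induction, and after 1 and 5 days in 1 µg/ml doxycycline, with RNA isolated 2 times per line and day, which gave 12 Q74 arrays and 12 Q23 arrays. PC12 cells without a construct gave 6 further arrays on the same days, taken here as RNA isolations of 1 culture. This is an assumption, since their sample labels also differ in the place that gives the line in the construct labels. The PC12 arrays of a day may therefore come from separate cultures, which was not tested. For PC12 cells, first and second isolation below mean the arrays numbered 1 and 2. Each construct was thus represented by 2 lines, RNA isolations are technical replicates, and p-values describe the spread between these lines only.

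PC12 is a rat phaeochromocytoma line with features of chromaffin cells and is used as a model of catecholamine-producing neurons. In Huntington's disease, expansion of the CAG repeat gives huntingtin a long polyglutamine stretch, and exon 1 fragments with such a stretch form aggregates in cells. The most abundant messenger RNAs of cultured mammalian cells generally encode ribosomal proteins, translation factors, cytoskeletal proteins, glycolytic enzymes and chaperones, the machinery that every cell needs. Which of the 247 probes belong to these groups was not analysed here, because the tables used here pair no probe with a gene. For the same reason the cell type was not checked against its marker genes, no sequence is shown, and only 4 probes are given by their identifier.

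The 247 probes carried between 25.4% and 30.3% of the summed signal of an array after the values were turned back to a linear scale. The share was 28.6% to 29.5% on the 4 Q74 arrays of day 0, 28.9% to 30.3% on those of day 1 and 26.8% to 27.7% on those of day 5. All 4 Q74 arrays of day 5 thus lay below all 8 Q74 arrays of the earlier days. In Q23 cells the share was 27.9% to 29.2% on day 0, 27.8% to 29.0% on day 1 and 27.8% to 29.6% on day 5, and the days overlapped. In PC12 cells it was 25.4% to 25.5% on day 0, 26.7% to 26.9% on day 1 and 27.0% to 27.1% on day 5. These shares were not tested, and no background was subtracted from the signal.

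The bright end of the scale was not equally high on all arrays. The median of the 247 probes was between 10.28 and a value 0.22 higher on the Q74 arrays, 10.29 to 10.54 on the Q23 arrays and 10.14 to 10.29 on the PC12 arrays, while the median of all probes stayed between 4.74 and 4.85. Between the RNA isolations of the same construct line and day, the members' median differed by 0.01 to 0.20. In Q23 line 1 it was 10.31, 10.49 and 10.51 on days 0, 1 and 5 in the first isolation, but 10.44, 10.29 and 10.36 in the second. Changes of the whole set by up to about this size therefore also occurred between RNA isolations of 1 line, and the part of this shift in the results that follow was not tested beyond the other scalings given beside them. In bulk RNA, fewer cells of a kind and less RNA in each cell cannot be told apart.

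**Figure D1:**
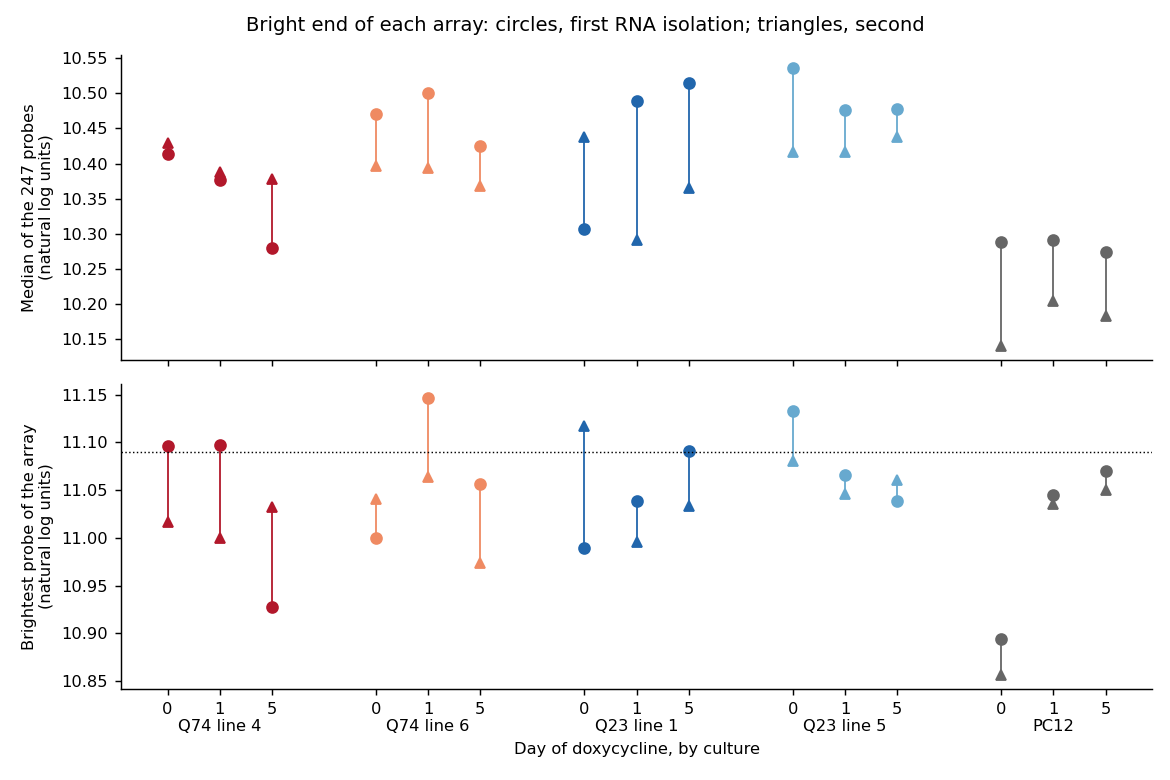
The median of the 247 probes (top) and the brightest probe of the array (bottom), in natural log units, for each culture on days 0, 1 and 5. Circles are the first and triangles the second RNA isolation, lines join the isolations of a line and day, and the dotted line marks the natural log of the limit of a 16-bit scanner, 11.09. The members' median ranged between 10.14 and 10.54, and the isolations of Q23 line 1 moved in opposite directions after day 0.

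A scanner that records 16 bits saturates at 11.09 on a natural log scale, although normalization can move single arrays past this value. The brightest probe of an array reached 10.86 to 11.15, and on 6 of 30 arrays it lay above 11.09. No values were tied at the top of any array, the gap between the brightest probe and the next was 0.0005 to 0.10, and 8 different probes were the brightest on some array. Of 5928 values of the 247 probes on the construct arrays, 65 were at least 11, and they belonged to 20 probes. No probe outside the set reached 11 on any array. Between 1 and 16 members lay within 0.1 of the maximum of their array. Only 1 member had a mean above 11, and the means of 103 members lay at least 0.5 above the limit of 10.

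The brightest member had a mean of 11.02, a factor of 1.07 below the limit, and was the brightest probe on 15 arrays. Its level was 10.93 to 11.02 on day 0, 11.0003 to 11.11 on day 1 and 10.93 to 11.06 on day 5 in Q74 cells. In Q23 cells it was 10.99 to 11.12 on day 0, 10.93 to 11.07 on day 1 and 10.95 to 11.06 on day 5. The days overlapped in both constructs, and the change from day 0 to day 5 in Q74 was not called (limma adjusted p = 0.881). In PC12 cells the same probe measured 10.84 and 10.88 on day 0, against 10.95 to 11.07 on the later days.

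Because the construct arrays set the rule, their brightest probes are mostly members by construction, and the overlap is given as a description. Of the 247 brightest probes of each line and day, 227 to 234 were members in the Q74 lines and 235 to 239 in the Q23 lines. In PC12 cells, whose arrays did not enter the rule, 208 to 210 of the 247 brightest probes were members. On all 24 construct arrays, 173 of the 247 members stayed at or above 10. The lowest member on day 5 was at 9.04 in Q74 line 4 and 9.12 in Q74 line 6, against 9.90 in Q23 line 1 and 9.98 in Q23 line 5.

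On day 1 few members had changed in the mean of both isolations. Folds were taken as the exponential of the difference from day 0 of the mean of both isolations. A change of 1.2-fold in either direction was reached by 11 of 247 members in Q74 line 4 (4.45%, beside 3.83% of all probes). It was reached by 4 in Q74 line 6 (1.62%, beside 2.28%) and by 1 in Q23 line 1 (0.405%, beside 1.83%). It was reached by 0 in Q23 line 5 (1.71% of all probes) and by 8 in PC12 cells (3.24%, beside 1.43% of all probes). No member reached 1.5-fold on day 1 in any of the 5 cultures. When the line was blocked in limma, 0 members were called on day 1 against day 0 in Q74 (0.426% of all probes were called) and 0 in Q23 (0.0% of all probes). At an unadjusted p under 0.05 these counts were 8 in Q74 (3.24%, beside 4.81% of all probes) and 0 in Q23 (beside 2.86% of all probes) (limma). In Q74 line 4 the 11 members stood for isolations that differed, since the first had 39 members higher and 56 lower by 1.2-fold and the second 0 higher and 1 lower. In PC12 cells the 8 members became 24 with the second isolation alone and 1 after quantile normalization. The count was 8 when each array was centred on the median of all its probes (centring on array medians). It was 4 when each array was centred on the members' median.

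On day 5 most members in both Q23 lines and in PC12 cells were within 1.2-fold of their level of day 0. In Q23 line 1, 5 members (2.02%) were higher by 1.2-fold, beside 0.719% of all probes, and 0 were lower (1.59% of all probes). In Q23 line 5 there were 0 higher (1.18% of all probes) and 0 lower (1.32% of all probes). In PC12 cells, 11 (4.45%) were higher, a larger share than the 1.08% of all probes, and 0 were lower (0.737% of all probes). After quantile normalization 1 member was higher in Q23 line 1 and 1 in PC12 cells, and with the second isolation alone 21 were higher in PC12 cells. With centring on array medians 4 were higher in Q23 line 1 and 9 in PC12 cells. With centring on the members' median these counts were 1 and 9. The fit called 0 members between day 5 and day 0 in Q23 (0.0% of all probes), with 3 (1.21%) at an unadjusted p under 0.05, beside 3.66% of all probes (limma). In all, 228 of 247 members (92.3%) stayed within 1.2-fold in Q23 line 1, Q23 line 5 and PC12 cells on both days, beside 89.9% of all probes. With both Q74 lines included as well, 146 members (59.1%) did so, a smaller share than the 67.5% of all probes.

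The small changes of Q23 line 1 were the mean of isolations that moved apart. On day 5 its first isolation had 146 members higher and 1 lower by 1.2-fold, with a median change of 0.22, whereas the second had 1 higher and 18 lower, with a median change of -0.08. On day 1 the first isolation had 137 higher and 1 lower, and the second 0 higher and 83 lower. Averaging isolations thus removed most of this movement, and the count of stable members in this line rests on that average. In Q23 line 5, by contrast, at most 6 members passed 1.2-fold in a direction in either isolation on either day.

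**Figure D2:**
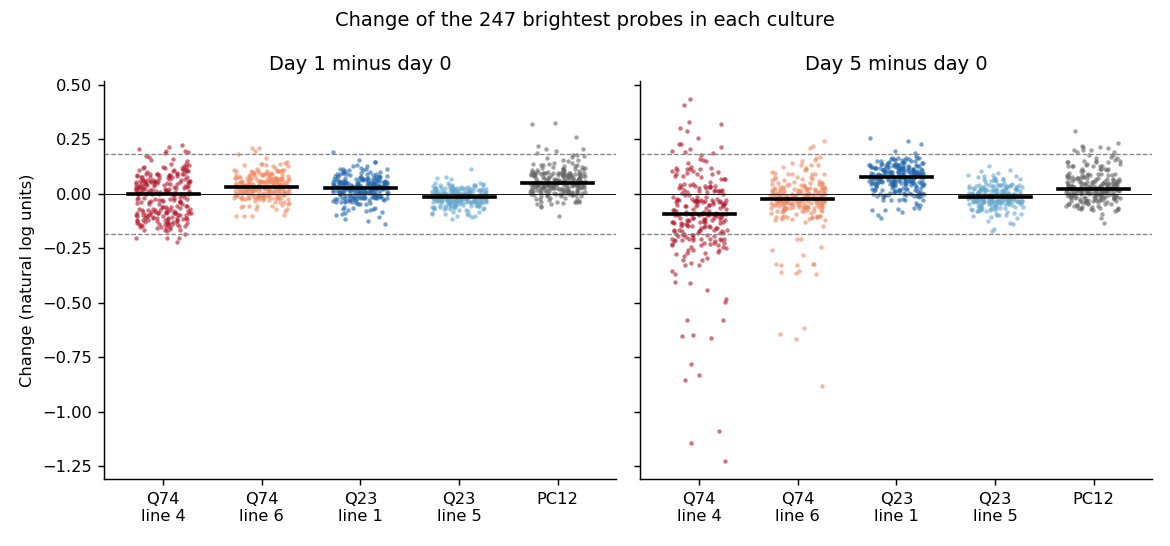
Change from day 0 to day 1 (left) and to day 5 (right) of the 247 probes in each culture, in natural log units. Points are probes (mean of 2 RNA isolations), black bars are medians, and dashed lines mark 1.2-fold. On day 1 no change passed 1.5-fold, and on day 5 the low tails of Q74 line 4, down to -1.23, and of Q74 line 6, down to -0.88, had no counterpart in the Q23 lines or PC12 cells.

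In the Q74 lines, a group of the abundant transcripts fell by day 5. In Q74 line 4, 65 members (26.3%) were lower by 1.2-fold, beside 7.63% of all probes, and 14 (5.67%) were higher, beside 9.99% of all probes. With the first isolation alone 101 were lower and 23 higher in this line, and with the second alone 28 were lower and 7 higher. In Q74 line 6, 18 members (7.29%) were lower, beside 4.46% of all probes, and 3 (1.21%) were higher, beside 5.22% of all probes. Of the 223 probes with means from 9.5 to 10, 44 were lower and 29 higher in line 4, and 14 were lower and 13 higher in line 6. The larger limit of 1.5-fold was passed downwards by 15 members in line 4 (1.86% of all probes) and by 4 in line 6 (0.662% of all probes), and upwards by 1 in line 4 and 0 in line 6.

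The surplus of falls in line 4 depended on the scaling. The median change of the members on day 5 was -0.09 in Q74 line 4 and -0.02 in Q74 line 6, against 0.08 in Q23 line 1, -0.01 in Q23 line 5 and 0.02 in PC12 cells. After quantile normalization the median was 0.01 in line 4, with 33 members higher and 24 lower by 1.2-fold, and centring each array on the members' own median gave 33 higher and 26 lower, so the majority direction of line 4 turned. In line 6, 6 were higher and 18 lower after quantile normalization, and 7 were higher and 16 lower after the centring on the members. Centring on the members removes a shift of the whole set by construction, and quantile normalization gives all arrays the same values at each rank. Neither can therefore show such a shift. With centring on array medians, 17 were higher and 48 lower in line 4, and 5 were higher and 18 lower in line 6.

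Both Q74 lines moved past 1.2-fold in the same direction for 18 members. These were 16 members that were lower (6.48%), beside 2.26% of all probes, and 2 that were higher (0.81%), beside 2.76% of all probes. The 16 were lower by 1.33-fold to 3.41-fold in line 4, with a median of 1.92-fold, and by 1.27-fold to 2.42-fold in line 6, with a median of 1.41-fold. The changes of these 16 lay between -0.10 and 0.11 in Q23 line 1, between -0.17 and 0.09 in Q23 line 5 and between -0.04 and 0.20 in PC12 cells, none of them a fall of 1.2-fold. Over the 247 members the day 5 changes of lines 4 and 6 had a Pearson correlation of 0.79 and a rank correlation of 0.53, given as a description. On day 1 the Pearson correlation was 0.10.

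**Figure D3:**
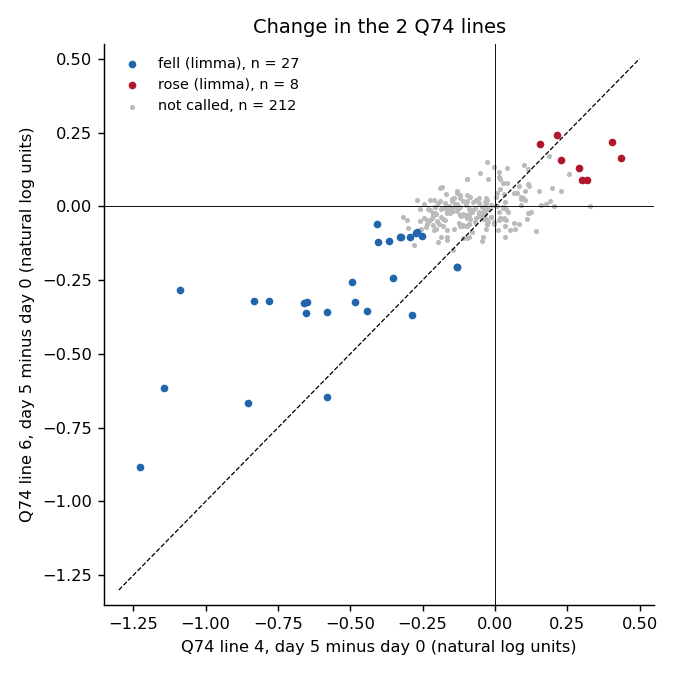
Change from day 0 to day 5 of the 247 probes in Q74 line 4 (horizontal) and Q74 line 6 (vertical), in natural log units, each the mean of 2 RNA isolations. Blue points are the 27 members that fell and red points the 8 that rose in the limma fit, grey points were not called, and the dashed line marks equal change. Most of the called falls lie above the dashed line, since 23 of 27 were larger in line 4.

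In the limma fit over both Q74 lines with the line as a block and Benjamini-Hochberg adjustment over all 22521 probes, 35 members (14.2%) differed between day 5 and day 0, beside 10.3% of all probes. Of these, 27 fell (10.9%), beside 4.21% of all probes, and 8 rose (3.24%), beside 6.13% of all probes. Among the 223 probes with means from 9.5 to 10, 9.42% fell and 7.62% rose. From 9 to 9.5 these shares were 9.76% and 11.9%, and from 8.5 to 9 they were 11.1% and 13.6%. The share of falls was thus similar in these dimmer probes, whereas the share of rises was lower in the members. The 27 that fell had a median change of -0.44 in line 4 and -0.28 in line 6, against 0.03 in Q23 line 1, -0.04 in Q23 line 5 and 0.02 in PC12 cells. All 4 isolations of the Q74 lines were lower on day 5 for 26 of the 27. The 8 that rose had smaller changes, with a median of 0.30 in line 4 and 0.16 in line 6, and 7 of them were higher in all 4 isolations. The calls used the means of these same isolations, which favours agreement in sign, so both counts over isolations are descriptions. The split of 8 against 27 became 14 rises and 16 falls after quantile normalization and 14 rises and 17 falls with the centring on the members' median. Of all probes, 5.21% rose and 4.65% fell under quantile normalization, and 11% rose and 2.30% fell under that centring. With centring on array medians 10 members rose and 21 fell, beside 8.09% and 3.41% of all probes.

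The count of 35 members rested on the lines that entered the fit. It was 14 (5.67%, beside 4.22% of all probes) when Q74 line 4 was left out and 57 (23.1%, beside 13.1%) when Q74 line 6 was. It was 20 (8.10%, beside 6.65%) without Q23 line 1 and likewise without Q23 line 5. In these fits the lone remaining line of a construct was assumed to vary like the others. A lone Q23 line is fitted exactly and adds nothing to the residual spread. The counts without either Q23 line are therefore the same by construction and amount to 1 check. When isolations entered separately and the line was a random block, 15 members were called (6.07%, beside 5.42% of all probes, limma), and these were 15 falls and 0 rises.

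On day 1 most of the called falls were still small. Of the 27 members that fell, 19 were below day 0 on day 1 in line 4 and 17 in line 6, and only 2 in line 4 and 0 in line 6 were lower by 1.2-fold at that time. All 27 were lower on day 5 than on day 1 in both lines. Relative to the median change of all members, 22 of the 27 were still lower by more than 1.2-fold in line 4, and 18 were in line 6. The 27 were chosen by their fall to day 5 in these same arrays, which favours low values on that day. These counts are therefore descriptions.

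The called falls and rises were counted by level, with no test of the difference between levels. Among the 144 members with a mean less than 0.5 above the limit of 10, 18 fell (12.5%) and 7 rose (4.86%) in Q74 by day 5. Among the 103 brighter members, 9 fell (8.74%) and 1 rose (0.971%), beside 4.21% and 6.13% of all probes. After quantile normalization 11 of the 144 fell and 12 rose, and 5 of the 103 fell and 2 rose. With the centring on the members' median 11 of the 144 fell and 13 rose, and 6 of the 103 fell and 1 rose. With centring on array medians 13 of the 144 fell and 9 rose, and 8 of the 103 fell and 1 rose. As deposited, the greatest rise by day 5 in the 31 members with means at least 0.75 above the limit of 10 was 0.04 in Q74 line 4 and 0.03 in Q74 line 6, and the greatest falls there were -0.66 and -0.36. After quantile normalization the greatest rises of these 31 members were 0.17 and 0.07. In the 74 members with means less than 0.25 above it the greatest rises were 0.41 in line 4 and 0.24 in line 6.

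The space below the scanner's limit shrinks in the same direction, by definition a factor of 2.98 at a level of 10 and of 1.80 at a level 0.5 higher. In PC12 cells, 7 of these 31 members were higher by 1.2-fold on day 5, with a greatest rise of 0.29. After quantile normalization 0 were, and the greatest rise was 0.14. With centring on array medians 5 were, and likewise 5 with the centring on the members' median, with a greatest rise of 0.28 under each. The brightest probe of the PC12 arrays of day 0 was at 10.86 and 10.89, the lowest of all 30 arrays. The median SD between RNA isolations was 0.07 for the 103 brighter members and 0.09 for the other 144, beside 0.07 for all probes. Whether saturation narrowed changes at the top was not tested.

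**Figure D4:**
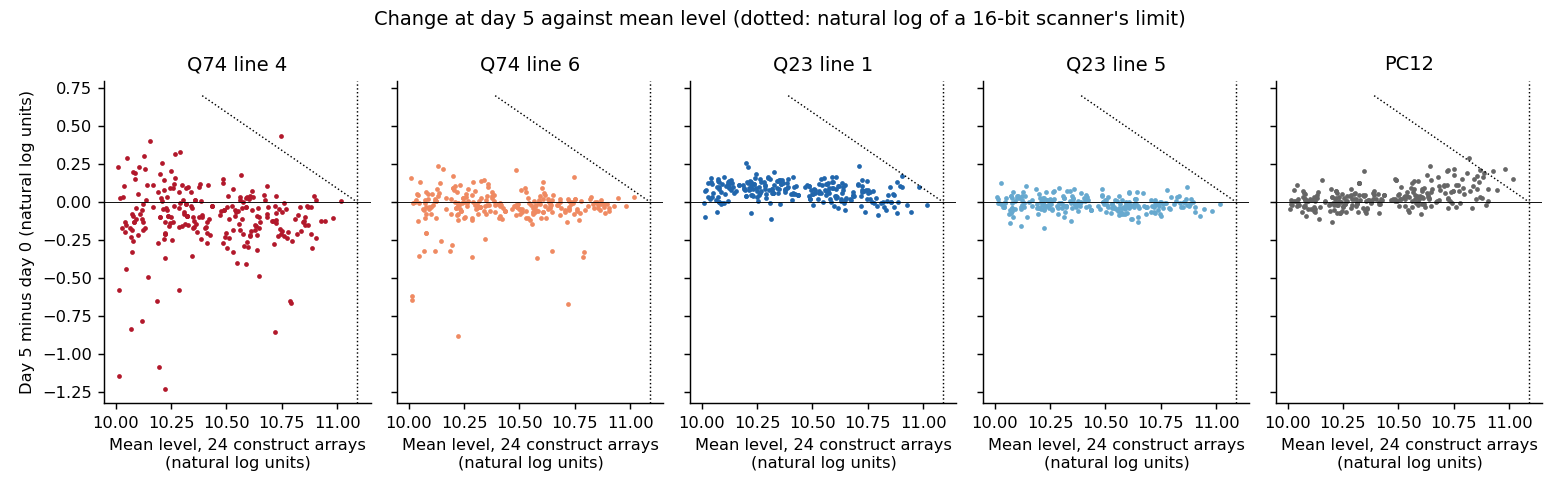
Change from day 0 to day 5 (vertical) against the mean over the 24 construct arrays (horizontal), both in natural log units, for the 247 probes in each culture. The dotted vertical line marks 11.09 and the dotted slope the distance from a given mean to it. The slope is no ceiling, since a change starts from the level of day 0, and some PC12 points lie above it. Falls of the Q74 lines occur at all levels, whereas among the 31 brightest members no rise exceeded 0.04 in these lines as deposited, or 0.17 after quantile normalization.

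The 2 falls and 2 rises with the largest change in the less changed Q74 line are described by array, with the first isolation before the second. Because the same Q74 arrays chose these probes, agreement between those arrays is a description. Probe ILMN_1363791, ranked 183 of all probes by mean level, measured 10.78 and 10.58 on day 0, 10.65 and 10.43 on day 1 and 9.54 and 9.36 on day 5 in Q74 line 4. In Q74 line 6 it measured 10.72 and 10.44 on day 0, 10.73 and 10.36 on day 1 and 9.96 and 9.44 on day 5. Every Q74 array of day 5 was thus below every Q74 array of days 0 and 1. In Q23 line 1 its values were 10.27 and 10.22 on day 0, 10.24 and 10.11 on day 1 and 10.21 and 10.13 on day 5, and in Q23 line 5 they were 10.35 and 10.22, 10.24 and 10.11, and 10.17 and 10.06 on these days. The Q74 arrays were above all Q23 arrays on day 0 and below all of them on day 5. In PC12 cells the probe was far dimmer, at 9.14 and 8.86 on day 0, 9.14 and 8.94 on day 1 and 9.07 and 8.89 on day 5, a factor of 3.37 below its construct mean.

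In Q74 cells ILMN_1363791 averaged 9.58 ± 0.18 on day 5 and 10.63 ± 0.07 on day 0 (SD, n = 2 lines). It was lower by 3.41-fold in line 4 and 2.42-fold in line 6, and the fitted change was -1.06 ± 0.07 (SE), a fall of 2.87-fold (limma adjusted p = 2.28e-08). The Q23 change was -0.12 ± 0.07 (limma adjusted p = 1.00), and the difference of the changes was -0.93 ± 0.09 (limma adjusted p = 2.57e-05). On day 5 Q74 was below Q23 by 0.57 ± 0.07 (limma adjusted p = 0.0101). The difference of 0.37 ± 0.07 on day 0, higher in Q74, did not pass the test (limma adjusted p = 0.285).

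Probe ILMN_1360569, ranked 43 by level, measured 10.76 and 10.91 on day 0, 10.91 and 10.87 on day 1 and 10.13 and 9.84 on day 5 in Q74 line 4. In Q74 line 6 it measured 10.77 and 10.86 on day 0, 10.96 and 10.91 on day 1 and 10.27 and 10.03 on day 5. All other values lay well above those of day 5 in Q74, with 10.75 to 10.91 on the 12 Q23 arrays and 10.56 to 10.84 on the 6 PC12 arrays. In PC12 cells the probe was higher by 1.22-fold on day 5 than on day 0, the direction opposite to Q74. The fitted change in Q74 was -0.76 ± 0.05 (SE), a fall of 2.14-fold (limma adjusted p = 1.16e-07), with falls of 2.34-fold in line 4 and 1.95-fold in line 6. In Q23 the change was 0.00 ± 0.05, and the difference of the changes was -0.76 ± 0.08 (limma adjusted p = 2.57e-05). On day 5 the level was 10.07 ± 0.12 in Q74 and 10.85 ± 0.05 in Q23 (SD, n = 2 lines each), a difference of -0.78 ± 0.06 (limma adjusted p = 0.00128), and on day 0 it was -0.02 ± 0.06 (limma adjusted p = 0.989). Both falls kept their call in all 13 alternatives run.

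Probe ILMN_1363374, ranked 204, was the rise with the largest change in the less changed line. It measured 10.44 and 10.11 on day 0, 10.73 and 10.09 on day 1 and 10.82 and 10.54 on day 5 in Q74 line 4, and 10.003 and 9.80, 10.06 and 9.76, and 10.14 and 10.11 on these days in Q74 line 6. Within each Q74 line both arrays of day 5 were above both arrays of day 0, but the arrays of line 6 on day 5 lay within the range of line 4 on day 0 or at its lower edge, so the days overlapped when the lines were pooled. Within each line and isolation, day 5 was above day 0 in all 4 cases, by 0.13 to 0.43. In Q23 cells its 12 values were 9.86 to 10.36, and in PC12 cells its 6 values were 10.25 to 10.67. The fitted rise in Q74 was 0.31 ± 0.06 (SE), or 1.37-fold (limma adjusted p = 0.00154), and its difference from the Q23 change was 0.27 ± 0.08, which did not pass the test (limma adjusted p = 0.0816).

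Probe ILMN_1366981, ranked 208, measured 10.82 and 10.07 on day 0, 10.66 and 10.06 on day 1 and 10.75 and 10.57 on day 5 in Q74 line 4. In Q74 line 6 it measured 9.94 and 9.76 on day 0, 9.97 and 9.80 on day 1 and 10.12 and 10.06 on day 5. The first isolation of line 4 did not rise, with a change of -0.07, whereas the other 3 changes were 0.18 to 0.50. In Q23 cells its values were 9.88 to 10.24, and in PC12 cells 10.18 to 10.45. The fitted rise was 0.23 ± 0.05 (SE), or 1.26-fold (limma adjusted p = 0.0101), and its difference from the Q23 change was 0.21 ± 0.08 (limma adjusted p = 0.187).

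The 2 named rises lost their call under more of the alternatives than the 2 named falls. Over the 24 construct arrays, which share lines and isolations, the values of both rises had a Pearson correlation of 0.94, the highest of any member with ILMN_1363374, and 1 further member reached 0.87 and the next 0.56. ILMN_1363374 lost its call in 4 and ILMN_1366981 in 5 of 13 alternatives. Without Q74 line 4 their changes were 0.22 and 0.24, and neither was called. Without Q74 line 6, ILMN_1366981 changed by 0.22 and was not called. With the first isolation alone ILMN_1366981 changed by 0.05 (limma adjusted p = 0.844) and with the second alone by 0.40 (limma adjusted p = 0.00178), and ILMN_1363374 changed by 0.26 (limma adjusted p = 0.0926) with the first alone. The first isolation was above the second in 12 of 12 line and day pairs for both rises, by 0.03 to 0.65 for ILMN_1363374 and by 0.05 to 0.76 for ILMN_1366981, but also for the fall ILMN_1363791, by 0.05 to 0.52, and in 7 of 12 pairs for ILMN_1360569.

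**Figure D5:**
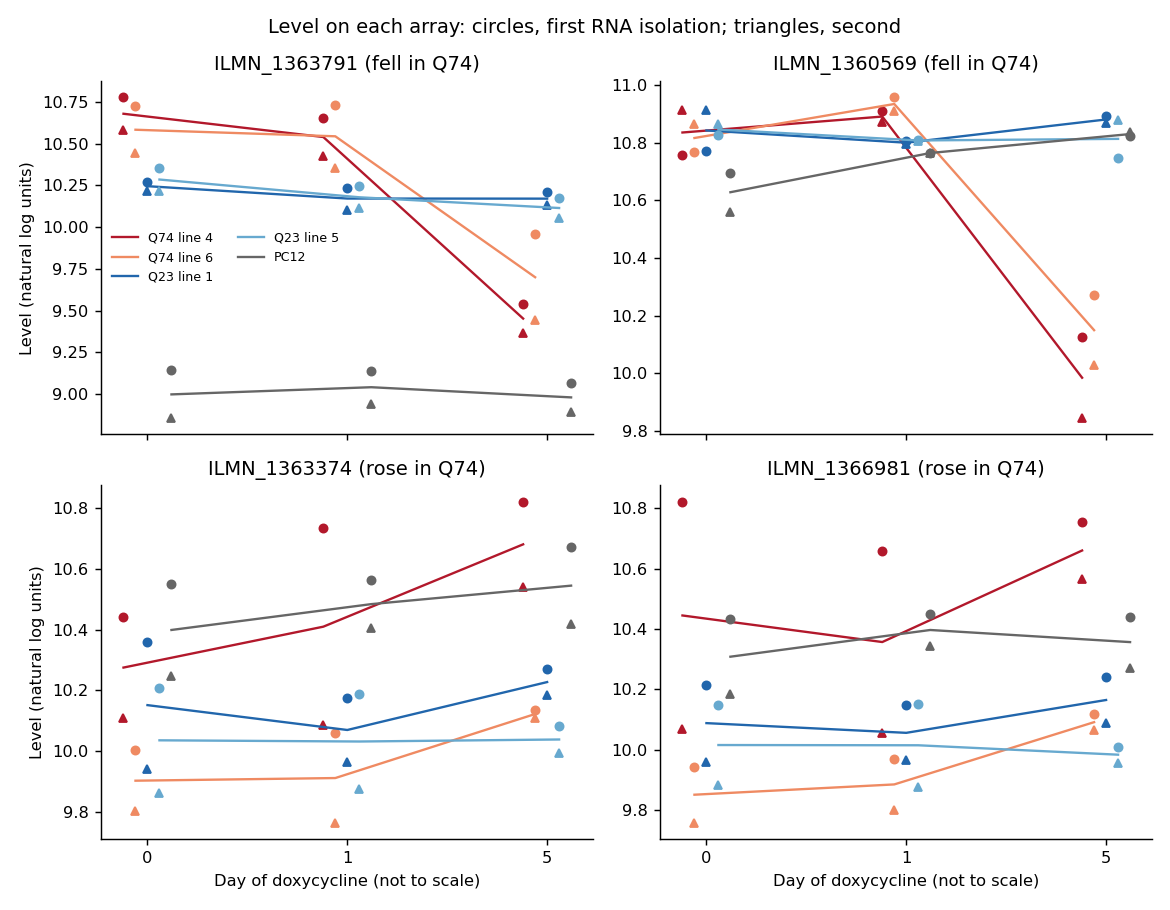
Level of the 2 named falls and the 2 named rises, in natural log units, on every array by day of doxycycline. Lines join the means of each culture, circles are the first and triangles the second RNA isolation. The Q74 arrays of day 5 lie below all other construct arrays for both falls, whereas for both rises the Q74 lines stand apart from each other on every day.

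Between Q74 and Q23, the day 5 change differed for 14 members (5.67%), beside 3.04% of all probes, and all 14 were changes towards lower values in Q74, beside 1.51% of all probes (limma). This comparison uses the same Q74 arrays as the changes within Q74. The 14 members were lower by day 5 in both lines, with a median change of -0.65 in line 4 and -0.36 in line 6, against 0.03 in Q23 line 1, -0.06 in Q23 line 5 and 0.02 in PC12 cells. They were chosen by the difference between the constructs, so the gap between these medians is a description. The count was 8 (3.24%, beside 1.55% of all probes) when Q74 line 4 was left out and 35 (14.2%, beside 9.14%) when Q74 line 6 was. It was 3 (1.21%, beside 0.280%) without Q23 line 1 and 2 (0.81%, beside 0.222%) without Q23 line 5. After quantile normalization 2 were higher and 10 lower (4.86% called, beside 2.81% of all probes). With the centring on the members' median 2 were higher and 11 lower (5.26%, beside 4.78%). With centring on array medians 0 were higher and 10 lower (4.05%, beside 3.06%). On day 1, 0 members had a different change (0.00444% of all probes), with 5 (2.02%) at an unadjusted p under 0.05, beside 3.52% of all probes (limma).

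Compared directly on each day, Q74 and Q23 lines differed in 0 members on day 0 (0.115% of all probes) and in 0 on day 1 (0.155% of all probes), with 9 (3.64%, beside 5.99% of all probes) and 10 (4.05%, beside 6.30%) members at an unadjusted p under 0.05 (limma). On day 5, 7 members (2.83%) differed, beside 1.12% of all probes, and all 7 were lower in Q74, beside 0.644% of all probes. Their median change from day 0 was -0.85 in line 4 and -0.36 in line 6, against 0.04 in Q23 line 1 and -0.04 in Q23 line 5. Choice by a low Q74 level on day 5 favours this gap, so it is a description. The fit per day has no line term although the same lines recur on every day, so its p-values can be too small. The count on day 5 was 16 (6.48%, beside 6.22% of all probes) when Q74 line 4 was left out and 22 (8.91%, beside 6.48%) when Q74 line 6 was. It was 0 without either Q23 line (0.00444% of all probes each) and 19 (7.69%, beside 5.28%) when isolations entered separately.

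In PC12 cells 217 of the 247 members had a lower mean than on the construct arrays and 30 a higher one, with a median difference of -0.19. Lower values are what a choice on the construct arrays favours, so this is a description only. A level more than 2-fold below the construct mean was found for 18 members, the largest by 5.70-fold, and 0 members were more than 2-fold above it. Of the 27 members that fell in Q74, 2 were among these 18, 1 of them ILMN_1363791.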

How the data were processed

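The deposited values are natural log intensities as read here: BeadStudio 3.1.7 gave the authors a mean over beads per probe, from which no background was taken, and VSN in R 2.4.1 normalized it. The log base is not stated and was inferred from the highest values, near 11.1, so folds (exponentials of differences) depend on it. Whether all arrays were normalized together is not given in the sources used here. The members, lists and tests were chosen with earlier results of these data known.

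RNA isolations were averaged to 12 line and day values. Limma 3.58.1 in R 4.3.3 fitted day changes with the line as a block (4 residual degrees of freedom, the same line being harvested on each day; correlations of deviations between days were 0.44 to 0.84) and Q74 against Q23 per day by group means (6 residual degrees of freedom), with Benjamini-Hochberg adjustment over 22521 probes (adjusted p under 0.05, two-sided). Both were tested on simulated data. The group-mean fit has no line term, although each line recurs on all 3 days with these correlations. Its 6 residual degrees of freedom are therefore not independent, and its p-values can be too small. PC12 arrays entered no fit. Named probes are the 2 called falls and 2 called rises with the largest change in the less changed Q74 line. Gene lists and markers could not be used without probe annotation. Other scalings, isolations, lines and level limits were tried. The number of lines and arrays limits the precision. Python 3.11.15 and matplotlib 3.10.9 drew the figures.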

Additional observations from a re-analysis of the deposited data

Results flagged for a closer look

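On the 4 Q74 arrays of day 1, the median of the 247 probes was 10.38 and 10.39 in line 4, and in line 6 it was 10.39 in the second isolation and 0.11 higher in the first. The gap of the first isolation of line 6 to the nearest other array was 0.861 of the range, above Dixon's 95% critical value for 4 samples. It was 1 of 30 sets of 4 values looked at, the members' median and the 4 named probes in each of the 6 groups of 4 arrays, and chance marks about 1 in 20.

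Between Q74 and Q23, the day 5 change differed for 14 of the 247 members by the limma test of the difference itself, towards lower values in Q74. For ILMN_1363791 the difference of the changes was -0.93, and for ILMN_1360569 it was -0.76. Both probes were lower on day 5 in 4 of 4 Q74 isolations, a description only, since they were chosen by their change in these same arrays.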

How the results depend on the processing

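Of the 35 members called between day 5 and day 0 in Q74 (limma), 15 remained when isolations entered separately and the line was a random block, where 15 were called in all. The count was 18 with the first and 19 with the second RNA isolation alone, and 14 to 57 when a line was left out. The single isolations called 7.29% and 7.69% of the members, beside 5.09% and 5.17% of all probes. With means of at least 9.5 the count was 73 of 470 probes (15.5%, beside 10.3% of all probes). With a limit 0.5 above the main one it was 10 of 103 (9.71%, beside 10.3%). For the difference of the day 5 changes, 14 in the main fit, these settings gave 7, 7 and 6, then 2 to 35, 23 and 5. The counts of 7, 7 and 6 were 2.83%, 2.83% and 2.43%, beside 0.706%, 1.19% and 1.5% of all probes. Those of 23 and 5 were 4.89% and 4.85%, beside 3.04% of all probes. On day 5 Q74 against Q23 gave 19 with separate isolations, 3 with the first isolation alone, 3 with the higher limit and 0 to 22 without a line. The counts of 19, 3 and 3 were 7.69%, 1.21% and 2.91%, beside 5.28%, 0.622% and 1.12% of all probes.

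Without the replicate block, the day 5 change in Q74 was called for 3 members (1.21%, beside 0.124% of all probes). The difference of the changes was called for 0 (0% of all probes). The pairing is the cell line itself, followed over the days. A further fit took each isolation as a sample, with the isolation number as a block and no line term. Isolations of a line, which are technical replicates, thus counted as independent. Q74 against Q23 then gave 2 members on day 0 (0.81%, beside 1.05% of all probes) and 2 on day 1 (0.81%, beside 1.47%). On day 5 this fit gave 28 (11.3%, beside 6.28%). With separate isolations and a random line block, Q74 against Q23 gave 1 on day 0 (0.405%, beside 0.702%) and 1 on day 1 (0.405%, beside 1.04%). Without a Q74 line it gave 3 to 6 on day 0 and 2 to 8 on day 1. Without Q74 line 4 the share of members called was below that of all probes on both days. Without Q74 line 6 it was above that of all probes on day 0 and below it on day 1.

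In Q74 line 4 the 79 members past 1.2-fold on day 5 became 57 after quantile normalization and 59 with centring on the members' median, both with more rises than falls, 124 with the first isolation alone and 35 with the second, and 16 past 1.5-fold. In Q74 line 6 the 21 became 4 past 1.5-fold. Majorities also turned with a single isolation, in Q74 line 4 on day 1 (95 with the first and 1 with the second, against 11) and in Q23 line 1 with the second (83 on day 1, against 1, and 18 down and 1 up, 19 in all, on day 5, against 5). The cause of these shifts was not tested. Trend and robust prior, array-median centring and leaving out the dimmer probes kept the counts within 1.5-fold. The members that reached 11 were 20 under each choice of arrays for the mean.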
